A study of Homo sapiens with 9 samples.

Results

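The transcriptome of Huh7, a long-established line of human liver cancer (hepatocellular carcinoma) cells, was compared between cells given FIDAS-5 and cells given vehicle. FIDAS-5 is an inhibitor of MAT2A, the enzyme that makes S-adenosylmethionine from methionine in most cells. The 3 FIDAS-5 libraries came from cells given 5 uM of the compound for 48 h in DMEM with 10% serum, and the 3 vehicle libraries came from cells in the same medium without it. Another 3 libraries of the series, from cells given 0.5 uM of the BET bromodomain inhibitor JQ1 for 48 h, were used only to add to the estimate of spread and for values set beside those of FIDAS-5. All 9 libraries were total RNA of a single cell line with 1 dose of each compound. Whether separate cultures gave rise to the libraries of a group is not in the labels, and p-values therefore rest on a spread between libraries that may be technical only. Genes entered the comparison when they reached 1 TPM (transcripts per 1000000, a level scaled for transcript length) in at least 3 of the 6 libraries. That rule kept 12944 of the 27800 listed symbols. Just inside it lay 615 genes that reached 1 TPM in exactly 3 libraries, with a median level of 1.09 TPM, and just outside it 507 genes that did so in exactly 2, with a median of 0.911 TPM.

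S-adenosylmethionine is the methyl donor for DNA, RNA, histone and small-molecule methyltransferases, and its breakdown product S-adenosylhomocysteine inhibits them. Many cancer cells deprived of it are known to slow their division. MAT1A is the form of the enzyme that mature liver uses, and MAT2A is the form of dividing cells and most liver cancer lines, where MAT2B regulates it.

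Fold changes below are differences of mean log2(TPM + 1), which are smaller than the ratio of the means for genes near 1 TPM. A gene counted as called when its limma p-value, adjusted by Benjamini-Hochberg over all 12944 genes, was under 0.05. With FIDAS-5, 21.4% of the genes tested were called, 1719 of them higher (13.3%) and 1045 lower (8.07%). At least a 2-fold change was seen in 540 of the genes called higher (4.17% of those tested) and 359 of those called lower (2.77%). The 3 FIDAS-5 libraries did not overlap the 3 vehicle libraries at 40.2% of all genes tested, so a gap between the groups at a single gene was common. The median log2 fold change over all genes was -0.02. Quantile normalization called 1956 genes higher and 1872 lower. Without vehicle replicate 3 the calls were 1095 higher and 584 lower, without FIDAS-5 replicate 3 they were 1117 and 561, without FIDAS-5 replicate 1 1125 were higher, and without FIDAS-5 replicate 2 645 were lower.

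The fold change rose with the GC content of a gene's transcripts (Spearman 0.381 across 12500 genes, which are not independent replicates). In the third of genes richest in GC 26.3% were called higher and 6.43% lower, against 3.24% and 9.31% in the third poorest in GC. Departures from the group mean also followed GC content within a group, and among the 6 compared libraries most in FIDAS-5 replicate 3 (Spearman 0.567) and FIDAS-5 replicate 1 (-0.515). In the JQ1 libraries, which also enter the fit, it ran from -0.669 to 0.656. With the GC trend of each library removed, 2381 genes (19%) were called higher and 2048 (16.4%) lower. The part of GC content in single results was not tested beyond that correction, and the count over a whole list after it is given beside most lists where it differed by more than 1.5 times. Such a count stands against the 19% higher and 16.4% lower of all genes after the correction. Smaller numbers stand here only: after the correction 2 genes were called higher among DNA replication, mitosis and cytosolic ribosomal protein genes, 2 lower among bile acid and respiratory chain genes, and 1 lower among lipoprotein, cholesterol, NF-kappaB, antioxidant and xenobiotic genes. All 12 hepatocyte-derived markers were detected, with summed levels of 5388 to 6283 TPM in vehicle and 4333 to 6409 TPM in FIDAS-5 libraries. Of markers of other cell types, 5 of 6 endothelial, 6 of 8 fibroblast and 5 of 9 leukocyte genes stayed under 1 TPM in all 6 libraries, and CDH5 and KRT7 were listed at 0 in each. Summed levels of the endothelial markers were 6.61 to 9.91 TPM in vehicle and 15.4 to 16.6 TPM in FIDAS-5 libraries, of the fibroblast markers 1.12 to 2.16 and 2.43 to 2.66 TPM, and of the cholangiocyte markers, which include SPP1, 27.6 to 33.1 and 37.5 to 55.7 TPM. Their part in the results was not tested. In such bulk samples fewer cells that make an RNA and less of it per cell cannot be told apart.

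The RNA of the target enzyme did not pass the test. MAT2A was at 78.4, 108 and 100 TPM in the vehicle libraries and 83.9, 67.6 and 84.8 TPM in the FIDAS-5 libraries. The groups overlapped and MAT2A was not called (log2 fold change -0.27, SE 0.17, adjusted p = 0.3). MAT2B was at 25.8, 31.9 and 26.9 TPM in the vehicle libraries and 20.1, 17.1 and 12.4 TPM in the FIDAS-5 libraries, with all FIDAS-5 libraries below all vehicle libraries but no call (log2 fold change -0.76, SE 0.26, adjusted p = 0.0685). MAT2B was called lower under 9 of 21 alternatives (adjusted p 0.0028 to 0.0387), among them the GC trend removed, median-of-ratios and quantile scaling and the omission of JQ1 replicate 3. MAT1A was at 2.19, 2.69 and 2.10 TPM in the vehicle libraries and 3.80, 4.67 and 3.47 TPM in the FIDAS-5 libraries, and was called higher (log2 fold change 0.58, SE 0.14, adjusted p = 0.0155). That call was lost without vehicle replicate 3 (adjusted p = 0.0693). In a list of 30 tested genes for methionine cycling, methionine salvage and polyamines, 4 were called higher and 1 lower, against 13.3% and 8.07% of all genes, and the list's median was 0.00. The number lower was 6 with the GC trend removed or without JQ1 replicate 3, 3 to 5 with median-of-ratios or quantile scaling, in the fit of the 6 libraries and with the replicate block, and 0 when 1 FIDAS-5 library, whichever it was, or vehicle replicate 2 or 3 was left out. The number higher was 2 without vehicle replicate 3 or with a filter of 5 TPM, and 7 with median-of-ratios scaling, with protein-coding genes alone or with the replicate block and the GC trend removed. Besides MAT1A the genes called higher included SMOX, which oxidizes spermine (0.96), and SAT2, named for polyamine acetylation (0.61). AHCY, which removes S-adenosylhomocysteine, was the gene called lower, at 145, 159.6 and 138 TPM in the vehicle libraries and 110.1, 103 and 109.6 TPM in the FIDAS-5 libraries (log2 fold change -0.45). The call of AHCY was lost under 10 of 21 alternatives (adjusted p 0.0527 to 0.106), among them the omission of any FIDAS-5 library or of vehicle replicate 2 or 3. SAT2 was not called without FIDAS-5 replicate 3 (adjusted p = 0.0643) or without vehicle replicate 3 (adjusted p = 0.0716). METTL16, the RNA methyltransferase that regulates MAT2A splicing, was at 4.84 ± 0.439 TPM (SD, n = 3) in vehicle and 4.74 ± 0.376 TPM in FIDAS-5 libraries (adjusted p = 0.928).

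Among 78 tested methyltransferase genes, 12 were called lower and 2 higher, against 8.07% and 13.3% of all genes tested, with a median of -0.17. DNMT3B, a de novo DNA methyltransferase, was at 4.49, 4.43 and 4.49 TPM in the vehicle libraries and 1.11, 1.05 and 0.994 TPM in the FIDAS-5 libraries (log2 fold change -1.42, SE 0.11, adjusted p = 6.36e-05). The vehicle libraries lay within 0.1 TPM of each other and more than 3 TPM above every FIDAS-5 library. EZH2, the catalytic subunit that methylates lysine 27 of histone H3, was at 16.1, 23.6 and 21.9 TPM in the vehicle libraries and 7.31, 5.80 and 4.92 TPM in the FIDAS-5 libraries (log2 fold change -1.61, SE 0.26, adjusted p = 0.00258). PRMT5, which makes symmetric dimethylarginine, changed by -0.68 and COQ3, a methyltransferase of ubiquinone synthesis, by -0.98. The 2 genes called higher act on small molecules and include NNMT, which methylates nicotinamide (0.55). NNMT was not called without FIDAS-5 replicate 1 (adjusted p = 0.0542) or vehicle replicate 3 (adjusted p = 0.0758). The number called lower was 27 with the GC trend removed, against 16.4% of all genes, and 21 with quantile normalization.

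The clustered histone genes, which are transcribed in S phase to package new DNA, showed the broadest fall. They held 1.85, 2.38 and 2.35% of all TPM in the vehicle libraries and 0.518, 0.556 and 0.535% in the FIDAS-5 libraries. Every FIDAS-5 library was below every vehicle library (exact permutation p = 0.1, the smallest that 3 against 3 libraries can give). Of 63 tested genes, 58 were called lower, against 8.07% of all genes, and none higher, and 60 had all FIDAS-5 libraries below all vehicle libraries, against 18.8% of all genes. The median log2 fold change was -1.92. All histone types took part: 5 of 5 tested H1 genes were called lower, 14 of 15 H2A, 18 of 19 H2B, 12 of 13 H3 and 9 of 11 H4 genes. Genes of these families are near-identical, and because reads can be shared out among them the levels of single genes are uncertain.

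**Figure D1:**
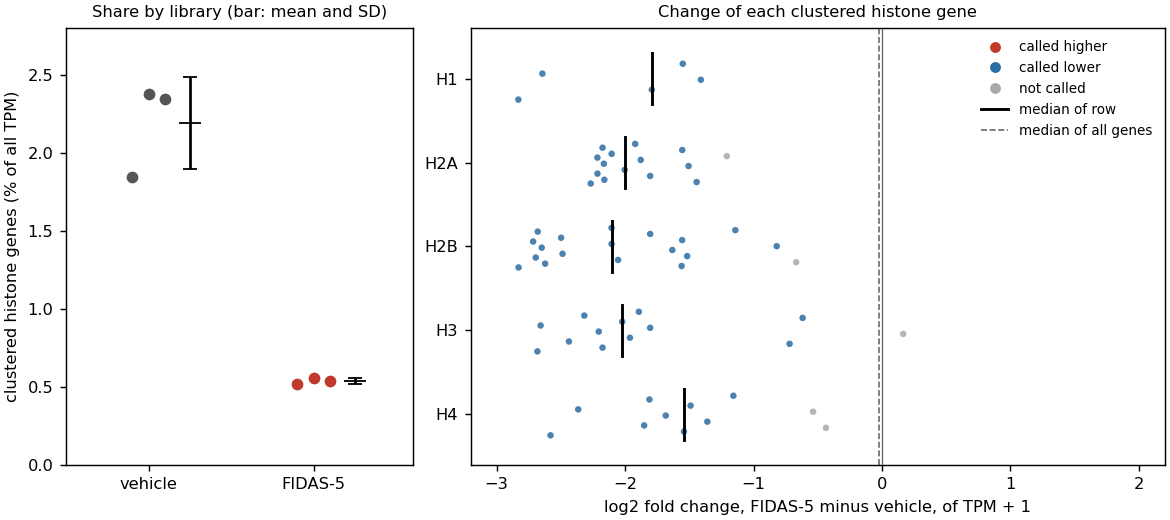
Left, the share of all TPM held by 71 clustered histone genes in each library, with the mean and SD beside the points (n = 3). Right, the log2 fold change (FIDAS-5 minus vehicle, TPM + 1) of each of the 63 tested genes by histone type. The FIDAS-5 libraries sit between 0.518 and 0.556%, and 58 of the 63 genes were called lower.

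HIST1H3B, an H3 gene, was at 1507, 2125 and 2009 TPM in the vehicle libraries and 404, 402 and 426 TPM in the FIDAS-5 libraries (log2 fold change -2.18, SE 0.15, adjusted p = 4.01e-05). HIST1H2BK was at 1514, 1383 and 1542 TPM in the vehicle libraries and 538, 494 and 472 TPM in the FIDAS-5 libraries (log2 fold change -1.56, SE 0.13, adjusted p = 1.07e-04). In both genes the groups were far apart relative to the spread within them. HIST1H1D, a linker histone that binds DNA between nucleosomes, was at 43.5, 78.3 and 63.0 TPM in the vehicle libraries and 5.95, 10.6 and 6.78 TPM in the FIDAS-5 libraries (log2 fold change -2.83, SE 0.25, adjusted p = 1.11e-04). Histone variants, which are made outside S phase as well, had smaller fold changes, and this group was added after its values were seen. Of 10 tested variant genes 5 were called lower and none higher, with a median of -0.60, and 2 or 3 were lower without any 1 FIDAS-5 or vehicle library. H2AFZ, the variant H2A.Z, was at 151, 226 and 173 TPM in the vehicle libraries and 109, 98.3 and 82.2 TPM in the FIDAS-5 libraries (log2 fold change -0.91), a call lost under 6 of 21 alternatives (adjusted p 0.0597 to 0.125), among them the omission of any FIDAS-5 library or of vehicle replicate 2 or 3. H1FX, a linker variant, changed by -0.82, whereas H1F0, the linker variant of differentiated cells, showed 0.13 (adjusted p = 0.605).

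The promoter of HIST1H1D is shown because its 250 bases before the transcription start hold a CCAAT box, a motif of many histone promoters. It lies at chr6:26234988-26235237 on the minus strand of GRCh38.p14 (RefSeq) and is written 5′ to 3′ with the motif in capitals.
HIST1H1D: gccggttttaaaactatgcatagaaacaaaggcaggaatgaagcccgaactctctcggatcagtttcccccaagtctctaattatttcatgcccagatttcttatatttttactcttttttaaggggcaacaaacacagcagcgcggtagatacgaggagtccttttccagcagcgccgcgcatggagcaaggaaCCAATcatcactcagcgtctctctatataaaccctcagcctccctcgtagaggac
The first base of the motif lies 55 bases before the start. Over windows from 250 bases before to 50 after the start, CCAAT on either strand was found in 44 of 51 matched clustered histone genes (86.3%), in 35.7% of all 27305 promoters and in 49.8% of those of genes called lower. Motif matches here and below describe the letters in these windows only.

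Genes that copy DNA fell in each of the 5 roles examined. Of 82 tested replication genes, 62 were called lower, against 8.07% of all genes, and 1 higher, with a median of -0.94. For licensing of origins, which loads the MCM helicase, 11 of 17 were lower. MCM7 was at 111, 125 and 108 TPM in the vehicle libraries and 39.5, 32.4 and 36.0 TPM in the FIDAS-5 libraries (log2 fold change -1.65, SE 0.13, adjusted p = 6.16e-05). MCM2, MCM4, MCM5 and MCM6 were called lower, with log2 fold changes of -1.61, -1.78, -1.68 and -1.53, and MCM3 with -0.91. For helicase activation 12 of 14 were lower. GINS2, a subunit of the GINS complex of the active helicase, was at 26.0, 30.4 and 28.8 TPM in the vehicle libraries and 7.45, 5.07 and 6.62 TPM in the FIDAS-5 libraries (log2 fold change -2.0, SE 0.15, adjusted p = 5.41e-05). Its partner GINS1 was at 27.7, 36.2 and 28.2 TPM in the vehicle libraries and 8.05, 7.54 and 6.99 TPM in the FIDAS-5 libraries (log2 fold change -1.89, SE 0.16, adjusted p = 8.24e-05). At both genes the groups were far apart.

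Among polymerases, sliding clamp and ligase 22 of 28 genes were lower. PCNA, the clamp, was at 162, 119.8 and 153 TPM in the vehicle libraries and 63.2, 48.9 and 43.0 TPM in the FIDAS-5 libraries (log2 fold change -1.48, SE 0.29, adjusted p = 0.00700). The exception was POLD4, the smallest subunit of DNA polymerase delta, at 7.51, 6.48 and 6.84 TPM in the vehicle libraries and 37.2, 32.6 and 37.3 TPM in the FIDAS-5 libraries (log2 fold change 2.21, SE 0.12, adjusted p = 1.12e-05). Its partners POLD2 and POLD3 were called lower (-0.64 and -1.33). For deoxynucleotide supply 9 of 12 genes were lower, including RRM1, the large subunit of ribonucleotide reductase, at 28.6, 43.2 and 37.4 TPM in the vehicle libraries and 14.1, 9.52 and 8.28 TPM in the FIDAS-5 libraries (log2 fold change -1.70, SE 0.27, adjusted p = 0.00268). For chromatin assembly and maintenance 8 of 11 were lower, among them the remodeller HELLS (-1.58). CDCA7, which partners HELLS, was at 44.3, 38.2 and 37.3 TPM in the vehicle libraries and 9.04, 8.49 and 6.73 TPM in the FIDAS-5 libraries (log2 fold change -2.18, SE 0.22, adjusted p = 2.42e-04).

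The promoter of GINS2 is shown because it holds an E2F motif, through which replication genes are known to be regulated. It lies at chr16:85688955-85689204 on the minus strand of GRCh38.p14 (RefSeq), with the match to TTTNNCGC, here on the opposite strand, in capitals.
GINS2: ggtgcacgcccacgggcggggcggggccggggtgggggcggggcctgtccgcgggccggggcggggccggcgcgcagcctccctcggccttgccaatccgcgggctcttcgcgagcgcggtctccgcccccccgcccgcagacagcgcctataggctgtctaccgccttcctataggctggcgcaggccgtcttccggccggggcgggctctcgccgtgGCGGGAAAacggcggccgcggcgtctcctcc
The match starts 31 bases before the transcription start. TTTNNCGC on either strand was found in 30 of 69 matched replication promoters (43.5%), including 9 of 15 of origin licensing. It was in 6.90% of all promoters, in 18.4% of those of genes called lower and in 10.6% of those of genes not called.

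Genes of cell division fell as well. Of 123 tested mitosis genes, 92 were called lower, against 8.07% of all genes, and none higher, with a median of -0.97, and 107 had all FIDAS-5 libraries below all vehicle libraries, against 18.8% of all genes. Spindle motors and cytokinesis genes were lower in 26 of 28 cases, mitotic kinases in 11 of 12, centromere and kinetochore genes in 28 of 34, and condensin and cohesin genes in 13 of 19. For the anaphase promoting complex, which marks mitotic proteins for destruction, the count was 4 of 16, namely ANAPC1, its activator CDC20, its inhibitor FBXO5 and its ubiquitin-conjugating enzyme UBE2C. ANAPC1 was not called without FIDAS-5 or vehicle replicate 2 or 3 or with no filter (adjusted p 0.0664 to 0.113). STMN1, which destabilizes microtubules, was at 457, 563 and 439 TPM in the vehicle libraries and 163, 156 and 118 TPM in the FIDAS-5 libraries (log2 fold change -1.74, SE 0.18, adjusted p = 3.25e-04). CCNB1, cyclin B1, was at 52.0, 69.1 and 68.9 TPM in the vehicle libraries and 34.2, 30.8 and 32.8 TPM in the FIDAS-5 libraries (log2 fold change -0.93, SE 0.16, adjusted p = 0.00440), a smaller fall than that of CCNA2, cyclin A2 (-1.61); the difference between these genes was not tested. MKI67, a widely used proliferation marker, was at 23.6, 14.4 and 24.6 TPM in the vehicle libraries and 13.9, 7 and 5.62 TPM in the FIDAS-5 libraries, without overlap but not called (log2 fold change -1.21, SE 0.44, adjusted p = 0.0839). It was called lower under 9 of 21 alternatives, among them the GC trend removed and the omission of FIDAS-5 replicate 1 or JQ1 replicate 3 (adjusted p 0.0161 to 0.0491 over the 9).

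KIF11, the motor that separates spindle poles, was at 10.8, 10.4 and 12.4 TPM in the vehicle libraries and 4.49, 2.98 and 2.30 TPM in the FIDAS-5 libraries (log2 fold change -1.55, SE 0.28, adjusted p = 0.00478). Its promoter is shown because it holds TTTGAA, the core of the cell cycle genes homology region that represses mitotic genes outside mitosis. It lies at chr10:92592880-92593129 on the plus strand of GRCh38.p14 (RefSeq), with the match, on the opposite strand, in capitals.
KIF11: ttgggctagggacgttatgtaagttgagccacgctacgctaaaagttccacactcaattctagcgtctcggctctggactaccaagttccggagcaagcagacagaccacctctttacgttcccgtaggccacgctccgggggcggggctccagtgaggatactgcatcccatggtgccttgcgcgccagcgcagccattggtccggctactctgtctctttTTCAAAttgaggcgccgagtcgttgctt
The match starts 28 bases before the transcription start. TTTGAA on either strand was in 53 of 103 matched mitosis promoters (51.5%), and in 20 of 26 of spindle and cytokinesis genes. In replication promoters it was in 4 of 69. The shares were 15.4% of all promoters, 21.5% for genes called lower and 9.25% for genes not called.

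**Figure D2:**
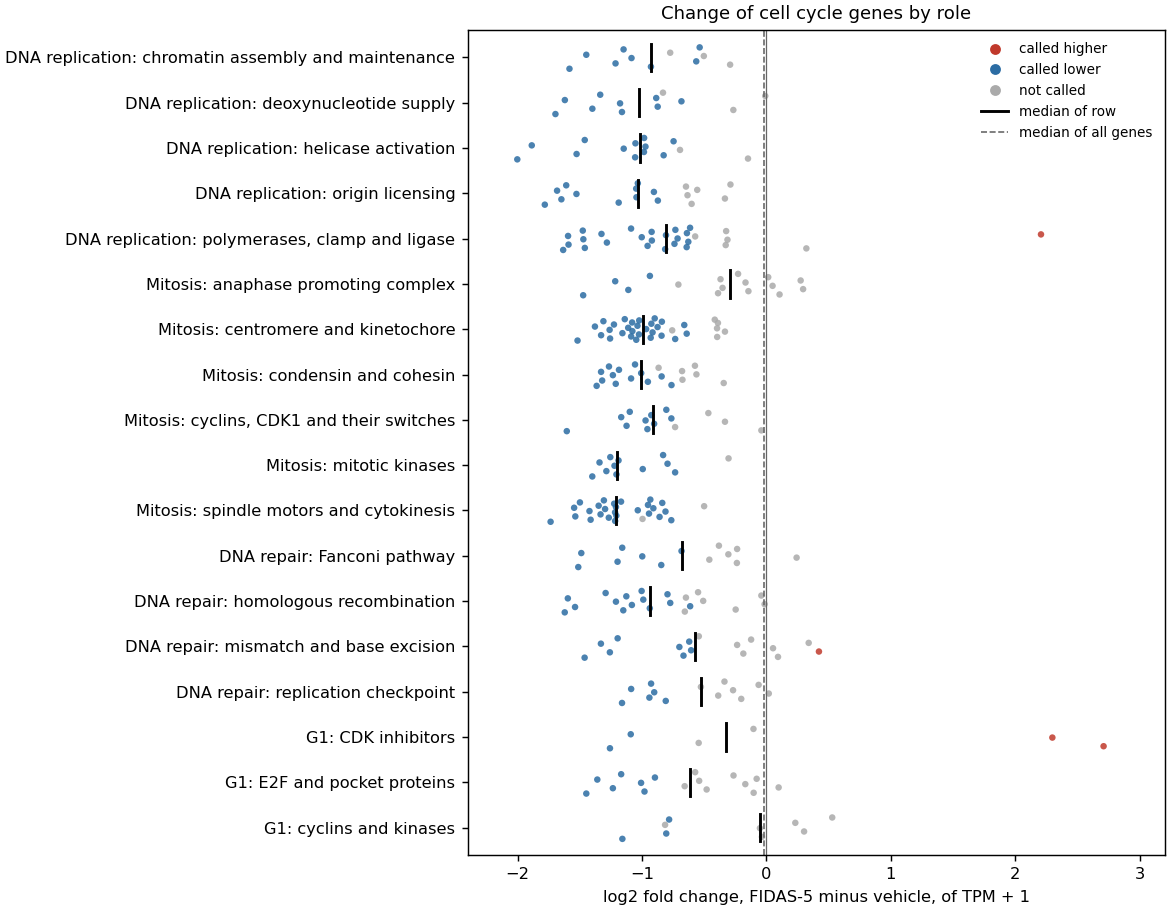
Log2 fold change (FIDAS-5 minus vehicle, TPM + 1) of each tested gene of DNA replication, mitosis, DNA repair and G1 control, by role; a black bar is the row's median and the dashed line the median of all genes. The median of each row lies below 0, and POLD4, CDKN2B and CDKN1A stand at 2.21, 2.30 and 2.71.

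DNA repair genes were called lower in 35 of 63 cases, against 8.07% of all genes, and higher in 1, with a median of -0.67. Homologous recombination, the error-free repair of breaks, had 14 of 21 lower, with BRCA1 at -1.54 and EXO1 at -1.60. In the Fanconi pathway, which repairs crosslinks, 7 of 13 were lower, with FANCD2 at -1.49 and FANCI at -1.51. UNG, which removes uracil from DNA, changed by -1.46. The gene called higher, NEIL1, is a base excision glycosylase at 1.18, 0.809 and 1.11 TPM in the vehicle libraries and 1.83, 1.53 and 1.80 TPM in the FIDAS-5 libraries, and its call was lost under 12 of 21 alternatives (adjusted p 0.061 to 0.469), among them the omission of any FIDAS-5 library or of vehicle replicate 2 or 3.

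In G1 control, 12 of 31 genes were called lower and 2 higher, against 8.07% and 13.3% of all genes. With a filter of 5 TPM 7 were called lower. The inhibitors of cyclin-dependent kinases (CDK) went both ways. CDKN1A, which encodes p21, was at 16.9, 19.6 and 17.0 TPM in the vehicle libraries and 135, 116 and 116 TPM in the FIDAS-5 libraries (log2 fold change 2.71, SE 0.14, adjusted p = 9.24e-06). CDKN2B, which encodes p15, was at 2.19, 2.10 and 2.31 TPM in the vehicle libraries and 19.7, 13.2 and 12.3 TPM in the FIDAS-5 libraries (log2 fold change 2.30, SE 0.26, adjusted p = 4.32e-04). In both the lowest FIDAS-5 library was more than 5 times the highest vehicle library. CDKN2C, which encodes p18, was in contrast at 10.8, 13.3 and 8.57 TPM in the vehicle libraries and 4.08, 4.33 and 3.37 TPM in the FIDAS-5 libraries (log2 fold change -1.26, SE 0.18, adjusted p = 0.00140). SKP2, which targets cell cycle inhibitors for destruction, was at 119, 192 and 155 TPM in the vehicle libraries and 66.1, 53.2 and 47.8 TPM in the FIDAS-5 libraries (log2 fold change -1.45, SE 0.27, adjusted p = 0.00532). CDK2, CDK4 and cyclin E1 (CCNE1) were called lower (-1.16, -0.78 and -0.81), whereas cyclin D1 (CCND1) was at 46.9 ± 2.16 TPM in vehicle and 58.4 ± 8.78 TPM in FIDAS-5 libraries (adjusted p = 0.258, and 0.0487 with median-of-ratios scaling). Of 20 tested p53 targets 8 were called higher and 1 lower, against 13.3% and 8.07% of all genes, with a median of 0.00. With the GC trend removed 3 were lower, against 16.4% of all genes. The number higher was 5 without FIDAS-5 replicate 1 or 3 or vehicle replicate 3. Of 11 tested BCL2 family genes, BMF, which promotes apoptosis, was at 4.48, 4 and 2.93 TPM in the vehicle libraries and 29.4, 28.7 and 26.2 TPM in the FIDAS-5 libraries (log2 fold change 2.61, SE 0.14, adjusted p = 1.22e-05), BOK was called higher (0.93, not called without FIDAS-5 replicate 2, adjusted p = 0.0501) and the other 9 were not called.

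**Figure D3:**
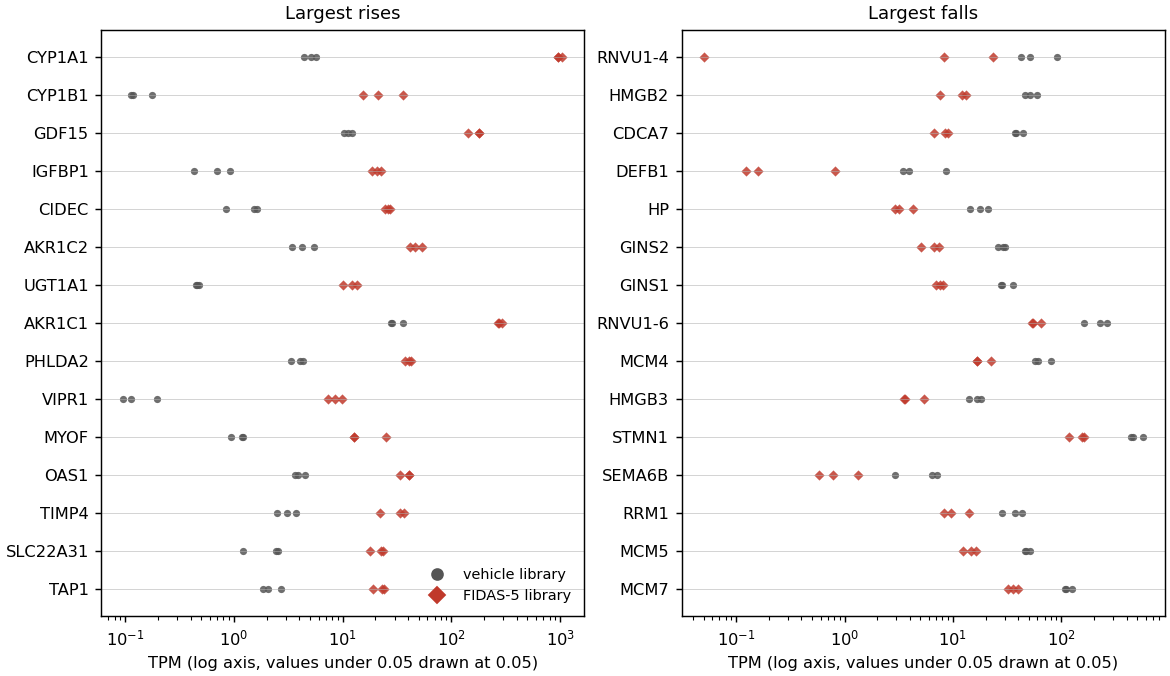
TPM in each of the 3 vehicle (grey circles) and 3 FIDAS-5 (red diamonds) libraries on a log axis, for the 15 genes of largest rise and the 15 of largest fall that met the naming rule. The libraries of the groups do not overlap at any of the 30 genes, which the rule required.

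The largest change of all was that of CYP1A1, a cytochrome P450 that oxidizes aromatic hydrocarbons and is the best known target of the aryl hydrocarbon receptor (AHR), a ligand-activated transcription factor. CYP1A1 (chr15:74719542-74725528 in GRCh38.p14, protein-coding) was at 5.72, 5.13 and 4.37 TPM in the vehicle libraries and 1047, 945 and 964 TPM in the FIDAS-5 libraries (log2 fold change 7.35, SE 0.13, adjusted p = 7.79e-09). CYP1B1, a related target, was at 0.176, 0.117 and 0.114 TPM in the vehicle libraries and 36.2, 21.3 and 15.5 TPM in the FIDAS-5 libraries (log2 fold change 4.40, SE 0.25, adjusted p = 1.40e-05). TIPARP, which represses AHR, was at 8.31, 9.12 and 8.50 TPM in the vehicle libraries and 72.2, 50.8 and 50.4 TPM in the FIDAS-5 libraries (log2 fold change 2.59, SE 0.21, adjusted p = 7.05e-05). ABCG2, a drug efflux pump, was at 2.54, 3.53 and 2.94 TPM in the vehicle libraries and 26.2, 17.8 and 16.2 TPM in the FIDAS-5 libraries (log2 fold change 2.37, SE 0.19, adjusted p = 7.07e-05). These were the 4 of 11 tested genes of the receptor axis called higher, against 13.3% of all genes. CYP1A2, the neighbour of CYP1A1, was at 1.83, 1.27 and 1.36 TPM in the vehicle libraries and 1.43, 1.72 and 1.16 TPM in the FIDAS-5 libraries, with overlapping groups (adjusted p = 0.919). NQO1, another AHR target, was called lower at 1.57, 1.98 and 1.43 TPM in the vehicle libraries and 1.07, 0.792 and 0.863 TPM in the FIDAS-5 libraries (log2 fold change -0.47), a call lost under 7 of 21 alternatives (adjusted p 0.0524 to 0.0962), among them the omission of FIDAS-5 replicate 2 or 3, of JQ1 replicate 2 or of vehicle replicate 2. The receptor gene AHR averaged 13.5 ± 4.49 TPM in vehicle and 22.7 ± 7.67 TPM in FIDAS-5 libraries and was not called (adjusted p = 0.166), though it was called higher with the GC trend removed, alone or with the replicate block, and with median-of-ratios scaling (adjusted p 0.00518 to 0.045).

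The promoter of CYP1A1 is shown because it holds GCGTG, the core of the element that AHR binds. It lies at chr15:74725529-74725778 on the minus strand of GRCh38.p14 (RefSeq), with the match in capitals.
CYP1A1: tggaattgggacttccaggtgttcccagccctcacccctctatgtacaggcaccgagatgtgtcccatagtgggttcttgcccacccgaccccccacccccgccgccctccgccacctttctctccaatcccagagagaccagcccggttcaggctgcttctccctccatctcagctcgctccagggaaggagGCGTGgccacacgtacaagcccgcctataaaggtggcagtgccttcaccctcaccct
The match starts 57 bases before the transcription start. GCGTG on either strand is common: it was in 5 of 9 matched promoters of the axis, 36.3% of all promoters, 46.8% of those of genes called higher and 51.7% of those not called.

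Drug-metabolizing enzymes beyond the CYP1 family also rose. Of 41 tested genes, 23 were called higher, against 13.3% of all genes, and none lower, with a median of 0.61. Cytochromes P450 of families 2 to 4 and their electron donors were higher in 10 of 12 cases, with CYP3A5 at 0.549, 0.554 and 0.809 TPM in the vehicle libraries and 5.08, 4.04 and 2.16 TPM in the FIDAS-5 libraries (log2 fold change 1.49, SE 0.26, adjusted p = 0.00431) and CYP2B6, a target of the xenobiotic receptors CAR and PXR, at 1.27. NR1I2, which encodes PXR, rose by 1.08. UGT1A1, which conjugates bilirubin, was at 0.473, 0.447 and 0.462 TPM in the vehicle libraries and 13.6, 10.2 and 12.1 TPM in the FIDAS-5 libraries (log2 fold change 3.14, SE 0.13, adjusted p = 4.30e-06); UGT1A genes share exons, so its separate level is uncertain. UGT2B4, which conjugates bile acids, was at 2.79, 4.17 and 3.92 TPM in the vehicle libraries and 15.1, 15.3 and 12.6 TPM in the FIDAS-5 libraries (log2 fold change 1.74, SE 0.19, adjusted p = 3.39e-04). GSTP1, a glutathione transferase, was the most abundant of these, at 1046, 1364 and 1177 TPM in the vehicle libraries and 2505, 2329.9 and 2251 TPM in the FIDAS-5 libraries (log2 fold change 0.99, SE 0.13, adjusted p = 0.00117). AKR1C1, a reductase of steroids and aldehydes, was at 27.9, 35.8 and 28.2 TPM in the vehicle libraries and 274, 266 and 289 TPM in the FIDAS-5 libraries (log2 fold change 3.14, SE 0.13, adjusted p = 4.30e-06), and its near-identical relative AKR1C2, which may share its reads, at 4.38 ± 1.03 TPM in vehicle and 47.4 ± 5.78 TPM in FIDAS-5 libraries. The efflux pumps ABCC2 and ABCC3, which export conjugates, rose by 1.61 and 2.2.

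Of 37 tested antioxidant and NRF2-related genes other than NQO1, 14 were called higher and none lower, with a median of 0.44. Of all genes 13.3% were called higher and 8.07% lower. NQO1, which is counted with the AHR axis above, was called lower (log2 fold change -0.47). That call was lost under 7 of the alternatives, so the rise in this list does not extend to NQO1. OSGIN1, an oxidative stress growth inhibitor, rose by 2.02. HMOX1, which degrades heme, was at 18.7, 16.4 and 16.1 TPM in the vehicle libraries and 36.1, 31.1 and 30.8 TPM in the FIDAS-5 libraries (log2 fold change 0.90, SE 0.12, adjusted p = 0.00117). The small MAF genes MAFF, MAFG and MAFK, partners of NRF2, were called higher (0.97, 0.97 and 1.13).

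Genes of the interferon response rose, mainly antiviral effectors and genes of antigen presentation. Of 63 tested genes 34 were called higher and 1 lower, against 13.3% and 8.07% of all genes, with a median of 0.73. With the GC trend removed 4 were lower, against 16.4% of all genes. Antiviral effectors were higher in 18 of 29 cases and genes of MHC class I presentation in 11 of 15. Receptors and signalling genes were higher in 5 of 15 cases and nucleic acid sensors in none of 4. OAS1, which makes an activator of RNase L, was at 3.91, 4.49 and 3.62 TPM in the vehicle libraries and 40.8, 33.4 and 40.6 TPM in the FIDAS-5 libraries (log2 fold change 2.97, SE 0.13, adjusted p = 6.56e-06). IFITM3, which blocks viral entry, was at 48.0, 24.8 and 38.9 TPM in the vehicle libraries and 168, 159.8 and 149.8 TPM in the FIDAS-5 libraries (log2 fold change 2.11, SE 0.22, adjusted p = 2.96e-04). TAP1, which carries peptides to MHC class I, was at 2.71, 2.05 and 1.86 TPM in the vehicle libraries and 23.8, 18.9 and 23.1 TPM in the FIDAS-5 libraries (log2 fold change 2.84, SE 0.14, adjusted p = 9.24e-06). In these genes every FIDAS-5 library was more than 3 times the highest vehicle library. PSMB9, a subunit of the immunoproteasome and the neighbour of TAP1, was at 0.368, 0.509 and 0.442 TPM in the vehicle libraries and 5.12, 5.36 and 4.94 TPM in the FIDAS-5 libraries (log2 fold change 2.09, SE 0.15, adjusted p = 4.28e-05), and HLA-C and HLA-E rose by 1.45 and 1.10.

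The transcription factors of the response were among the genes that rose. IRF1 was at 1.64, 2.14 and 2.40 TPM in the vehicle libraries and 11.4, 8.80 and 10.1 TPM in the FIDAS-5 libraries (log2 fold change 1.86, SE 0.16, adjusted p = 1.02e-04). IRF9 was at 1.80, 1.51 and 1.38 TPM in the vehicle libraries and 7.5, 6.78 and 7.13 TPM in the FIDAS-5 libraries (log2 fold change 1.67, SE 0.15, adjusted p = 1.56e-04). STAT2, its partner, rose by 1.02. USP18, which dampens interferon signalling, was at 9.74 ± 2.44 TPM in vehicle and 8.77 ± 0.362 TPM in FIDAS-5 libraries (adjusted p = 0.681). SOCS1, another feedback inhibitor, was the 1 gene called lower, at 3.87, 2.45 and 4.42 TPM in the vehicle libraries and 1.05, 1.40 and 1.24 TPM in the FIDAS-5 libraries (log2 fold change -1.01, SE 0.20, adjusted p = 0.00651). The summed level of 9 leukocyte markers was 115 to 141 TPM in vehicle and 253 to 312 TPM in FIDAS-5 libraries, nearly all of it LYZ, which was at 102, 125 and 111 TPM and then at 283, 227 and 250.1 TPM. PTPRC, a marker of all leukocytes, stayed under 1 TPM in all 6 libraries.

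The promoter of TAP1 is shown because it holds the interferon-stimulated response element, here GAAA, any 2 bases and GAAA again. It lies at chr6:32853705-32853954 on the minus strand of GRCh38.p14 (RefSeq). A pair of overlapping matches, both on the opposite strand, is in capitals.
TAP1: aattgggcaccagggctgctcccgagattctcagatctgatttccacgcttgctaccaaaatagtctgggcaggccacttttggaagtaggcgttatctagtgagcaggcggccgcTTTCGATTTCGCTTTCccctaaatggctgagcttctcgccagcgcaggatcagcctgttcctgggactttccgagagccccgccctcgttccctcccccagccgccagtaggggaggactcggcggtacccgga
The matches start 134 and 128 bases before the transcription start. The element on either strand was in 27 of 53 matched interferon promoters (50.9%), with 17 of 26 among effectors and 8 of 12 in MHC class I presentation. The shares were 3.65% of all promoters, 3.88% for all genes called higher and 2.56% for genes not called.

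Of 39 tested genes of NF-kappaB signalling, cytokines and their receptors, 24 were called higher, against 13.3% of all genes, and none lower, with a median of 0.79. Receptors of the TNF family were higher in 8 of 9 cases. TNFRSF12A, the receptor of TWEAK, was at 3.12, 3.81 and 4.15 TPM in the vehicle libraries and 13.8, 14.9 and 13.2 TPM in the FIDAS-5 libraries (log2 fold change 1.68, SE 0.15, adjusted p = 1.25e-04). TNFRSF11B, the decoy receptor osteoprotegerin, rose by 1.47 and LTBR, the lymphotoxin receptor, by 1.19. CXCL8, a neutrophil chemokine, was at 4.58, 3.05 and 3.54 TPM in the vehicle libraries and 26.5, 17.7 and 20.9 TPM in the FIDAS-5 libraries (log2 fold change 2.26, SE 0.23, adjusted p = 2.56e-04). CXCL10, an interferon-inducible chemokine, was at 0.774, 0.551 and 0.330 TPM in the vehicle libraries and 4.26, 3.07 and 2.31 TPM in the FIDAS-5 libraries (log2 fold change 1.43, SE 0.18, adjusted p = 9.32e-04), and IL32, a cytokine of the inflamed liver, rose by 1.77. Within the pathway NFKB2 and RELB, which form the noncanonical factor, rose by 1.59 and 1.02.

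Immediate early genes were called higher in 16 of 41 cases, against 13.3% of all genes, and lower in 1. All 9 tested AP-1 genes had every FIDAS-5 library above every vehicle library, against 21.4% of all genes, and 7 were called. The calls of FOSL1 and JUN were lost without FIDAS-5 replicate 1 or 3, vehicle replicate 3 or JQ1 replicate 2, and each under some further alternatives (adjusted p 0.0514 to 0.121 for FOSL1 and 0.0532 to 0.139 for JUN). FOS was at 2.35, 2.02 and 2.03 TPM in the vehicle libraries and 8.11, 7.88 and 6.92 TPM in the FIDAS-5 libraries (log2 fold change 1.46, SE 0.12, adjusted p = 7.05e-05), and ATF3, a stress-induced partner, and FOSB rose by 1.15 and 0.73. KLF4, a differentiation factor, rose by 2.05, EGR1 by 1.35 and the feedback gene PHLDA1 by 2.13. AREG, a ligand of the EGF receptor, rose by 2.63.

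Targets of ATF4, the factor of the integrated stress response, were mostly not called. Of 53 tested genes, 10 were called higher, against 13.3% of all genes, and 1 lower, with a median of 0.05, and none of 14 tRNA synthetases was called. With the GC trend removed 5 genes of the list were lower, against 16.4% of all genes. ATF4 was at 341, 381 and 318 TPM in the vehicle libraries and 309, 272 and 264 TPM in the FIDAS-5 libraries (adjusted p = 0.198), and was called lower with the GC trend removed, alone or with the replicate block (adjusted p 0.00907 to 0.0212). ASNS, which makes asparagine, and DDIT3, which encodes CHOP, had log2 fold changes of 0.10 and 0.11 with overlapping groups. SLC3A2, the heavy chain of amino acid transporters, was at 139.8, 117 and 113 TPM in the vehicle libraries and 511, 284 and 459 TPM in the FIDAS-5 libraries (log2 fold change 1.71, SE 0.21, adjusted p = 7.21e-04). SESN2, CHAC1, ADM2 and NUPR1, stress-induced genes, rose by 1.17, 0.91, 1.67 and 1.57.

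GDF15, a secreted stress cytokine (chr19:18386158-18389176 in GRCh38.p14), was at 12.2, 11.1 and 10.3 TPM in the vehicle libraries and 179.9, 142 and 179 TPM in the FIDAS-5 libraries (log2 fold change 3.78, SE 0.14, adjusted p = 3.72e-06). Inside the GDF15 gene lies MIR3189, at chr19:18386562-18386634 on the plus strand. MIR3189 was listed at 127, 92.9 and 71.6 TPM in the vehicle libraries and 460.0, 414 and 405 TPM in the FIDAS-5 libraries (log2 fold change 2.16, SE 0.21, adjusted p = 2.30e-04). These are RNA-seq values for the hairpin, so reads of the GDF15 transcript and of a microRNA cannot be told apart in them. The mature sequences of its arms (RefSeq), with the seed, bases 2 to 8, in capitals, are
hsa-miR-3189-5p: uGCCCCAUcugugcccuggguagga
hsa-miR-3189-3p: cCCUUGGGucugaugggguag
The short RNAs that fell furthest by the same rule were MIR4256, MIR548D2, MIR4448, MIR181A2 and SNORA79. MIR548D2 was at 38.0, 41.6 and 40.8 TPM in the vehicle libraries and 7.02, 3.25 and 0 TPM in the FIDAS-5 libraries (log2 fold change -3.66, SE 0.73, adjusted p = 0.00744). MIR4448 was at 23.2, 15.7 and 14.9 TPM in the vehicle libraries and 0, 0 and 2.69 TPM in the FIDAS-5 libraries (log2 fold change -3.59, SE 0.58, adjusted p = 0.00277). MIR4256 was at 15, 17.4 and 7.54 TPM in vehicle and was listed at 0 in all FIDAS-5 libraries. No mature sequence of MIR548D2 was at hand. Those of MIR4448 and MIR4256 share no seed and are
hsa-miR-4448: gGCUCCUUggucuaggggua
hsa-miR-4256: aUCUGACCugaugaaggu
The reads behind these values are unknown. MIR378I, MIR6840, MIR6859-1 and SNORD167, the short RNAs that rose furthest, were listed at 0 in 2 or more vehicle libraries and reached at most 18.7 TPM. Their calls were lost under 10, 5, 7 and 4 of 21 alternatives, the omission of vehicle replicate 3 among them in each case, and that of MIR181A2 under 4, among them the omission of vehicle or FIDAS-5 replicate 3 (adjusted p 0.0564 to 0.0593). SNORA79 was not called without vehicle replicate 2 (adjusted p = 0.053).

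Among lipid-handling genes, those of lipoproteins and lipid droplets were called higher in most cases. Of 21 tested lipoprotein genes, 14 were called higher, against 13.3% of all genes, and none lower, with a median of 0.90. APOE was at 40.4, 31.6 and 35.5 TPM in the vehicle libraries and 127, 143 and 130.3 TPM in the FIDAS-5 libraries (log2 fold change 1.88, SE 0.14, adjusted p = 4.84e-05). APOA2, a protein of high-density lipoprotein, was at 378, 595 and 518 TPM in the vehicle libraries and 1428, 1618 and 1615 TPM in the FIDAS-5 libraries (log2 fold change 1.66, SE 0.17, adjusted p = 2.87e-04). SCARB1, the receptor of that particle, rose by 1.41. Fatty acid oxidation genes were higher in 18 of 43 cases, against 13.3% of all genes, and lower in 1, with a median of 0.35. CPT1A, the gate of mitochondrial import, rose by 0.97, ACSL5, which activates fatty acids, by 2.0 and the oxidation enzyme ACAA1 by 1.55, whereas HADH, an enzyme of short chains, was at 15.4, 17.1 and 14.3 TPM in the vehicle libraries and 9.93, 9.67 and 8.51 TPM in the FIDAS-5 libraries (log2 fold change -0.68, SE 0.14, adjusted p = 0.00890).

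Proteins of the lipid droplet and its lipases were called higher in 9 of 13 cases. CIDEC, which fuses droplets, was at 1.54, 1.62 and 0.839 TPM in the vehicle libraries and 27.5, 26.1 and 24.3 TPM in the FIDAS-5 libraries (log2 fold change 3.55, SE 0.16, adjusted p = 6.81e-06). PLIN2, the main droplet coat of liver, was at 80.2, 103 and 88.8 TPM in the vehicle libraries and 240.1, 225 and 237 TPM in the FIDAS-5 libraries (log2 fold change 1.36, SE 0.13, adjusted p = 1.76e-04). PPARG, the adipocyte factor that drives CIDEC, rose by 1.44. HILPDA, a lipase inhibitor, was called lower (-0.54), a call lost without FIDAS-5 replicate 1 or 3 or vehicle replicate 2 or 3 (adjusted p 0.0601 to 0.0993). For synthesis of fatty acids and triglycerides 4 of 21 were higher and 1 lower. Over both roles 2 genes were called lower, and 4 with the GC trend removed, against 16.4% of all genes after that correction. The number called higher was 13, and 8 without FIDAS-5 replicate 1 or FIDAS-5 replicate 3. Cholesterol synthesis genes were called higher in 3 of 21 cases, near the 13.3% of all genes. Of 17 bile acid genes 7 were higher and 1 lower, against 13.3% and 8.07% of all genes. NR0B2, a repressor induced by the bile acid receptor FXR, was at 4.17, 4.31 and 3.26 TPM in the vehicle libraries and 19.7, 18.1 and 18.8 TPM in the FIDAS-5 libraries (log2 fold change 2.02, SE 0.13, adjusted p = 2.63e-05). NR1H4, which encodes FXR itself, was at 44.6, 66.5 and 64.3 TPM in the vehicle libraries and 39.9, 29.8 and 27.9 TPM in the FIDAS-5 libraries (log2 fold change -0.82), a call lost under 5 of 21 alternatives (adjusted p 0.0527 to 0.1), namely the omission of FIDAS-5 or vehicle replicate 2 or 3 or of FIDAS-5 and JQ1 replicate 3 together.

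**Figure D4:**
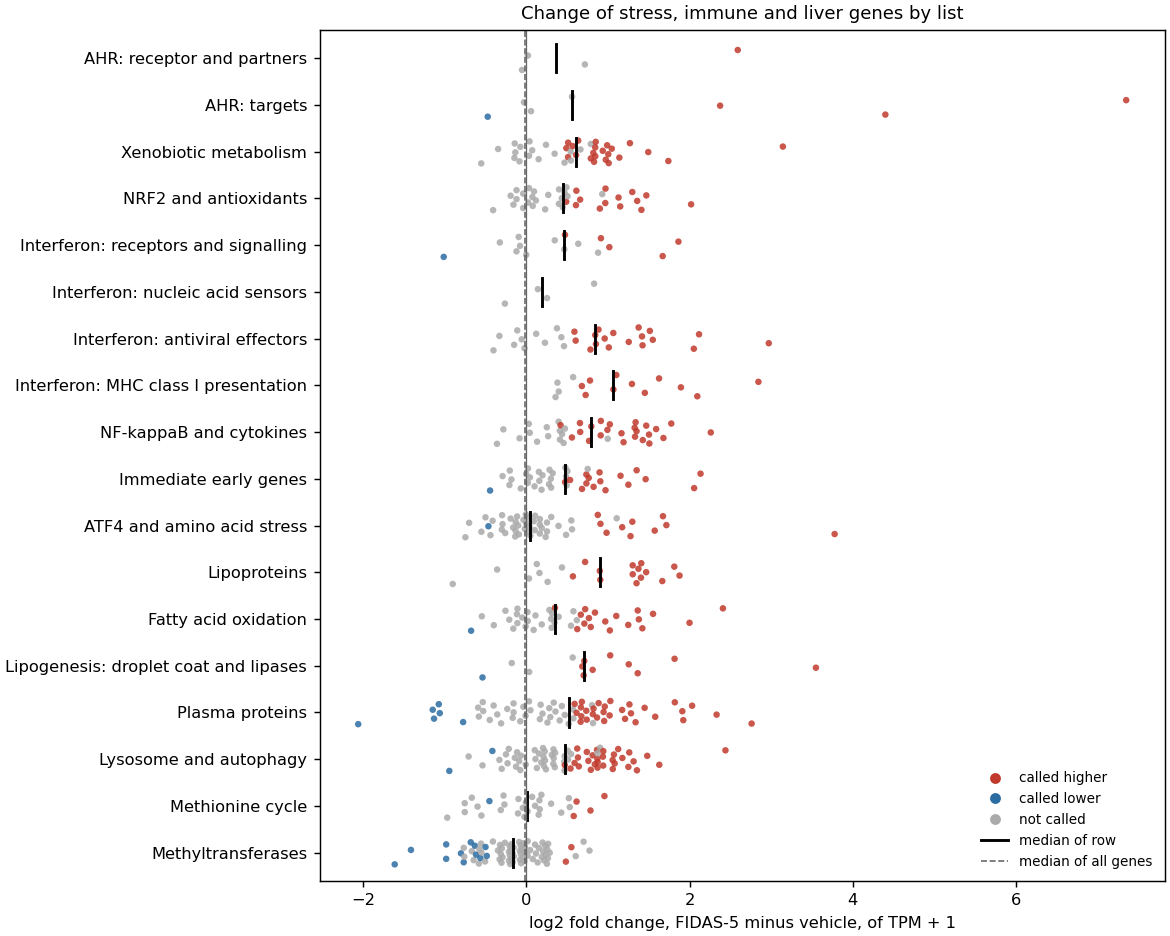
Log2 fold change (FIDAS-5 minus vehicle, TPM + 1) of each tested gene in lists of stress, immune, lipid and methylation genes; a black bar is the row's median and the dashed line the median of all genes. The points furthest right are CYP1A1 (7.35), CYP1B1 (4.40), GDF15 (3.78) and CIDEC (3.55), and the medians of the methionine cycle and methyltransferase rows are 0.00 and -0.17.

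Secreted plasma proteins were called higher more often than lower. Of 69 tested genes 30 were called higher and 6 lower, against 13.3% and 8.07% of all genes, with a median of 0.52. The number lower was thus near the share of all genes. Coagulation and fibrinolysis genes were higher in 17 of 27 cases. SERPIND1, heparin cofactor II, was at 57.4, 53.9 and 53.4 TPM in the vehicle libraries and 228, 205 and 199.8 TPM in the FIDAS-5 libraries (log2 fold change 1.92, SE 0.11, adjusted p = 1.71e-05). MBL2, a lectin that starts the complement cascade, was at 0.851, 0.865 and 0.973 TPM in the vehicle libraries and 16.2, 15.3 and 6.55 TPM in the FIDAS-5 libraries (log2 fold change 2.76, SE 0.28, adjusted p = 2.56e-04), and C1S, a complement protease, rose by 1.91. A2M, a broad protease inhibitor, was at 26.9, 22.0 and 21.3 TPM in the vehicle libraries and 140.0, 107 and 118 TPM in the FIDAS-5 libraries (log2 fold change 2.33, SE 0.19, adjusted p = 7.70e-05). HP, which encodes haptoglobin, fell from 14.4, 21.1 and 17.6 TPM to 3.19, 4.30 and 2.91 TPM (log2 fold change -2.06, SE 0.18, adjusted p = 1.09e-04). ORM1, an acute phase protein, was at 62.3, 70.4 and 64.4 TPM in the vehicle libraries and 31.8, 26.6 and 30.1 TPM in the FIDAS-5 libraries (log2 fold change -1.13, SE 0.15, adjusted p = 0.00106). ALB, the main plasma protein, was at 953, 1591 and 1184 TPM in the vehicle libraries and 1552, 1368 and 826 TPM in the FIDAS-5 libraries, with overlapping groups (adjusted p = 0.985). HNF4A, the master factor of the hepatocyte, was not called (0.31, adjusted p = 0.155).

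Lysosome and autophagy genes were called higher in 31 of 72 cases, against 13.3% of all genes, and lower in 2, with a median of 0.47. With the GC trend removed 7 were lower, against 16.4% of all genes. The protease CTSD rose by 1.63, the autophagy factor TP53INP2 by 2.44 and the proton pump subunit ATP6V0A1 by 1.26. Of 19 heat shock genes 3 were called, near the 13.3% higher of all genes. With the GC trend removed 4 were called higher and 4 lower, against 19% and 16.4% of all genes. The 3 called without that correction were higher: HSPB8, at 8.43, 9.03 and 7.89 TPM in the vehicle libraries and 57.3, 40.2 and 53.6 TPM in the FIDAS-5 libraries (log2 fold change 2.43, SE 0.15, adjusted p = 2.31e-05), its partner BAG3 (0.85) and CRYAB (1.75). HSPB8 and BAG3 act together in chaperone-assisted autophagy. Of 26 genes of endoplasmic reticulum stress 7 were higher and none lower, against 13.3% and 8.07% of all genes. The number higher was 13 with the GC trend removed, against 19% of all genes. It was 4 with no filter and without FIDAS-5 replicate 1 or any 1 of the vehicle libraries.

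Some of the largest changes fell outside these groups. IGFBP1, a liver-made binding protein of insulin-like growth factors, was at 0.916, 0.701 and 0.427 TPM in the vehicle libraries and 20.6, 22.4 and 18.5 TPM in the FIDAS-5 libraries (log2 fold change 3.68, SE 0.14, adjusted p = 4.01e-06). VIPR1, the receptor of vasoactive intestinal peptide, was at 0.195, 0.113 and 0.0962 TPM in the vehicle libraries and 9.92, 7.39 and 8.46 TPM in the FIDAS-5 libraries (log2 fold change 3.07, SE 0.13, adjusted p = 4.30e-06). Receptors of fibroblast growth factors split, with FGFR3 called higher (0.84, not called without any 1 of the FIDAS-5 libraries, adjusted p 0.0514 to 0.0554) and FGFR1 and FGFR2 lower (-0.91 and -1.31). PHLDA2 and SLC22A18, neighbouring imprinted genes of chromosome 11, both rose: PHLDA2 was at 4.08, 4.29 and 3.33 TPM in the vehicle libraries and 42.7, 37.1 and 40.8 TPM in the FIDAS-5 libraries (log2 fold change 3.08, SE 0.15, adjusted p = 7.24e-06), and SLC22A18 at 13.3, 6.68 and 14.1 TPM in the vehicle libraries and 60.9, 44.5 and 60.5 TPM in the FIDAS-5 libraries (log2 fold change 2.24, SE 0.25, adjusted p = 4.50e-04). SLC22A18 overlaps an antisense gene, and whether counting used strand is not given in the sources used here. H19, an imprinted noncoding RNA of the same chromosome, fell from 2.53, 1.74 and 2.42 TPM to 0.0706, 0.261 and 0.345 TPM (log2 fold change -1.40, SE 0.16, adjusted p = 4.35e-04). These were the 3 of 10 tested imprinted genes that were called, against 21.4% of all genes called in either direction. Matrix proteins were higher in 9 of 16 cases, against 13.3% of all genes. They were led by SPP1, which encodes osteopontin (log2 fold change 2.69, SE 0.21, adjusted p = 6.43e-05). SPP1 was at 0.691, 1.21 and 1.32 TPM in the vehicle libraries and 16, 13.1 and 8.79 TPM in the FIDAS-5 libraries. TIMP4, an inhibitor of matrix proteases, was at 2.48, 3.75 and 3.05 TPM in the vehicle libraries and 36.5, 21.9 and 33.7 TPM in the FIDAS-5 libraries (log2 fold change 2.93, SE 0.22, adjusted p = 5.41e-05), and MYOF, a membrane repair protein, at 0.940, 1.20 and 1.19 TPM in the vehicle libraries and 25.1, 12.8 and 12.6 TPM in the FIDAS-5 libraries (log2 fold change 3.01, SE 0.24, adjusted p = 7.07e-05). HMGB2, a chromatin protein of dividing cells, fell from 46.5, 59.0 and 51.6 TPM to 13.3, 12.1 and 7.64 TPM (log2 fold change -2.18, SE 0.30, adjusted p = 0.00130), and its relative HMGB3 fell by 1.74. RNVU1-4, a variant of the U1 splicing RNA, had the largest fall by the naming rule outside clustered histones and short RNA symbols. It fell from 42.3, 90.5 and 51.0 TPM to 2.28e-06, 23.4 and 8.25 TPM. Its call was lost under 11 of 21 alternatives (adjusted p 0.0514 to 0.124). Among them were the omission of FIDAS-5 replicate 3, of JQ1 replicate 1 or 2 and of any vehicle library. RNVU1-6, a near-identical relative of RNVU1-4, fell from 160.3, 263 and 229.9 TPM to 53.7, 64.3 and 55.0 TPM (log2 fold change -1.87, SE 0.24, adjusted p = 8.65e-04). Reads may be split between them.

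Calls were few or unstable in several other large gene groups. The respiratory chain had 4 of 82 genes called higher, against 13.3% of all genes, and none lower, and the count ranged from 0 (without FIDAS-5 replicate 3) to 13 (with the replicate block and the GC trend removed). Of 31 proteasome genes 1 was called higher, against 13.3% of all genes, and none lower. With the GC trend removed 3 were higher and 1 lower, against 19% and 16.4% of all genes. Cytosolic ribosomal protein genes were lower in 10 of 82 cases, against 8.07% of all genes, and higher in none. They held 4.88% ± 0.718 (SD, n = 3) of TPM in vehicle and 3.92% ± 0.164 in FIDAS-5 libraries (exact permutation p = 0.1, the smallest possible). The symbols MIR6723 and MIR4461 together held 26.3, 8.74 and 18.4% of TPM in the vehicle libraries and 27.5, 22.7 and 28.9% in the FIDAS-5 libraries. Shares of a library add up to a fixed total, and the part of these 2 symbols in other shares was not tested. The count of ribosomal protein genes called lower was 4 without FIDAS-5 replicate 3 and 6 without FIDAS-5 replicate 1 or vehicle replicate 2. It was 6 with quantile normalization and 25 with the replicate block and the GC trend removed. Ribosome biogenesis genes were lower in 8 of 45 cases, against 8.07% of all genes, and in 24 with the GC trend removed, against 16.4%. The count lower was 2 or 3 without FIDAS-5 replicate 2 or 3 or vehicle replicate 2 or 3, and 5 without JQ1 replicate 2. Of 323 ZNF genes 8 were higher and 21 lower, against 13.3% and 8.07% of all genes. With the GC trend removed 25 and 49 were, against 19% and 16.4%. In glycolysis 5 of 17 genes were lower and 1 higher, against 8.07% and 13.3% of all genes. LDHA, which makes lactate, was at -0.73, not called without FIDAS-5 replicate 3 (adjusted p = 0.066) or vehicle replicate 3 (adjusted p = 0.0551). With the GC trend removed 11 glycolysis genes were lower, against 16.4% of all genes. PDK1, which shuts pyruvate out of the mitochondrion, fell by 1.56. Of 328 small nucleolar RNA genes 38 were lower and 3 higher, against 8.07% and 13.3% of all genes. The number lower was 22 with no filter and 15 to 22 without FIDAS-5 replicate 2 or vehicle replicate 2 or 3. GC content was at hand for 258 of these genes, of which 21 were lower with the GC trend removed, against 16.4% of all genes.

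Values with JQ1 are set beside those of FIDAS-5 for some of the genes of largest change and for ABCG2, BMF, HIST1H2BK and DNMT3B, which were picked after their values were seen. Both contrasts use the same vehicle libraries and the doses are not matched, so the test given is the direct contrast between the compounds. GDF15 had a log2 fold change of -0.99 with JQ1 against 3.78 with FIDAS-5 (direct contrast 4.76, adjusted p = 1.56e-07). MIR3189, inside it, had -2.2 against 2.16 (direct contrast 4.36, adjusted p = 1.62e-06). For OAS1 the values were -2.16 and 2.97 (direct contrast 5.12, adjusted p = 8.82e-08). For ABCG2 they were -1.56 and 2.37, and for PHLDA2 -1.12 and 3.08 (adjusted p of the direct contrast 1.43e-06 and 3.51e-07). These genes were called lower with JQ1 and higher with FIDAS-5, which was not the more common case. Of 1719 genes called higher with FIDAS-5, 725 were called higher with JQ1 and 344 lower. Of 1045 called lower with FIDAS-5, 625 were called lower with JQ1 and 41 higher. With JQ1 38.4% of all genes were called in either direction. Sharing the vehicle libraries favours the same direction in such counts. CYP1A1 had -0.21 with JQ1 (adjusted p = 0.218). BMF had 2.33 with JQ1 and 2.61 with FIDAS-5, and the direct contrast was 0.29 (adjusted p = 0.160). CDCA7 and GINS1 also did not pass the direct contrast, at -0.09 and -0.20 (adjusted p = 0.776 and 0.359). The 5 clustered histones of largest fall with FIDAS-5 were also low with JQ1, from -3.68 for HIST1H2BM to -1.45 for HIST2H3A. HIST1H1D had -2.32 with JQ1 and did not pass the direct contrast (-0.51, adjusted p = 0.145), and HIST1H2BM, at -2.83 with FIDAS-5, was the lower with JQ1 (direct contrast 0.85, adjusted p = 0.0282). HIST1H2BK fell with FIDAS-5 (-1.56) and had -0.17 with JQ1 (direct contrast -1.39, adjusted p = 7.20e-05). DNMT3B fell with FIDAS-5 (-1.42) and rose with JQ1 (0.62, direct contrast -2.04, adjusted p = 2.69e-06).

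**Figure D5:**
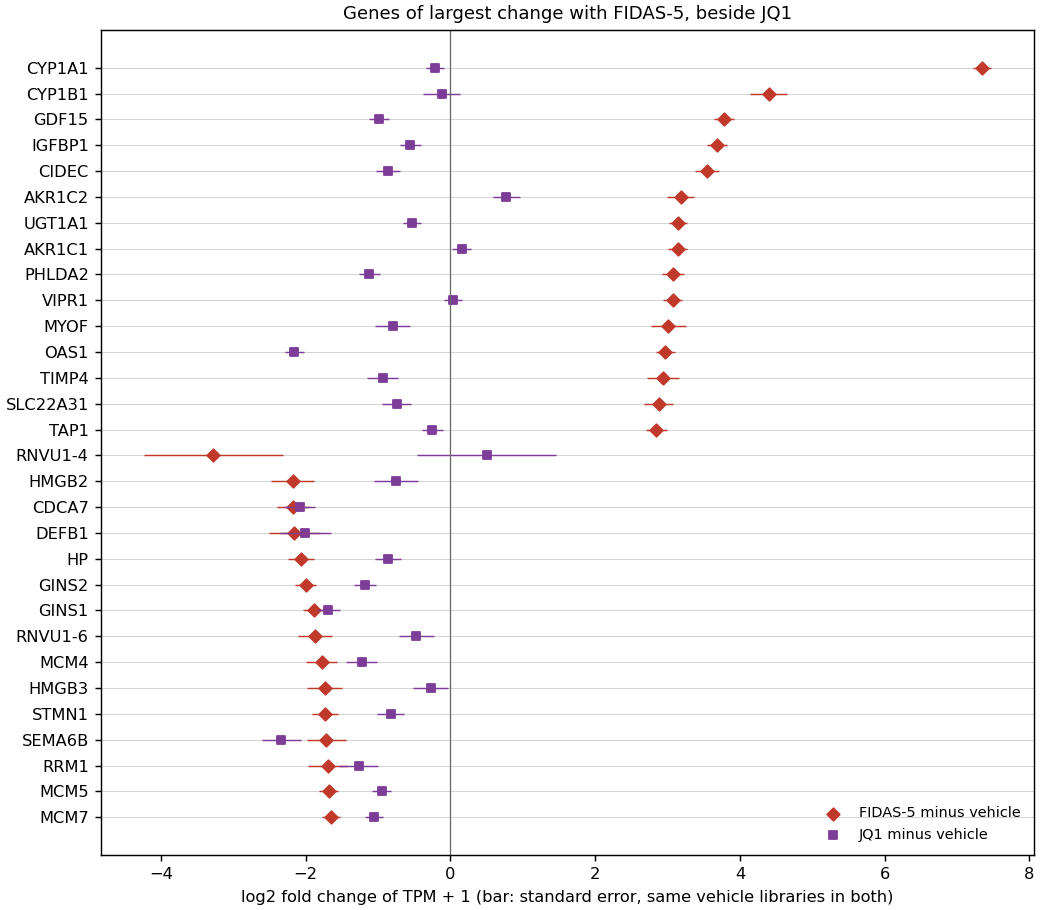
Log2 fold change against vehicle (TPM + 1) with FIDAS-5 (red diamonds) and with JQ1 (purple squares), bars showing the standard error. Shown are the 15 genes of largest rise and the 15 of largest fall with FIDAS-5 that met the naming rule, without short RNAs and clustered histones. The genes were chosen for their change with FIDAS-5; with JQ1, the 15 genes of largest rise lie between -2.16 for OAS1 and 0.77 for AKR1C2.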

How the data were processed

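TPM values per gene symbol were deposited by the authors in 1 table for 9 libraries, made with Salmon on hg38 per the submitters' processing notes, and each library sums to 1000000. The version, annotation and strand setting are not given in the sources used here, and TPM keeps no depth, so the reads behind a value are unknown. Values were taken as log2(TPM + 1). Genes that reached 1 TPM in 3 or more of the 6 compared libraries were fitted with limma 3.58.1 (R 4.3.3) over all 9 libraries with 1 mean per group (6 residual degrees of freedom), and p-values were adjusted over all genes tested by Benjamini-Hochberg. In simulated data with 200 changed genes among 12944, 49% of changes of 1 and 91% of changes of 2 on the log2 scale were recovered, and 4.76% of calls were false. The noise was drawn independently for each gene, and the changed genes were picked among those with a vehicle mean above 2 on the log2 scale. In the data far more genes were called and departures of libraries followed GC content, so these rates need not hold there. Gene classes, promoters and microRNA sequences came from RefSeq tables of GRCh38.p14. These matched 25681 symbols directly and 1134 by a synonym and left 985 unmatched. GC content was the median over the transcripts of a gene in the GENCODE transcript sequences.

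The gene lists and the rule for named genes were chosen with earlier results of these data known. The rule took MAT2A, MAT2B and MAT1A, the 15 genes of largest rise and of largest fall among called genes that averaged 5 TPM or more in whichever group was higher and did not overlap, up to 5 short RNAs and 5 clustered histones in each direction by the same rule, and members of the lists to describe each list. The lists of histone variants and of MKI67 alone were added after their values were seen.

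The alternatives were a pseudocount of 0.1, no filter, a filter of 5 TPM, median-of-ratios scaling, quantile normalization, rescaling to protein-coding genes, a fit of the 6 libraries alone, moderation with a trend, a replicate block, a lowess trend on GC content (span 0.3) removed per library, both together, the omission of each library, and that of replicate 3 of FIDAS-5 and JQ1 together.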

Additional observations from a re-analysis of the deposited data

How the results depend on the processing

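Over the omission of single libraries the genes called ranged from 1678 to 3374, those called higher from 1095 to 1885 and those called lower from 561 to 1490. With the GC trend removed 4429 genes were called, 2048 of them lower, and quantile normalization called 1872 lower; the cause was not tested. Of 1499 genes followed, 678 were called as reported and 492 of these were called under every alternative that gave them a value. The omission of vehicle replicate 3 ended 152 of those calls and that of FIDAS-5 replicate 3 145, whereas the GC correction ended 21. No called gene changed direction. BAX, which was not called as reported (0.01), had -0.25 with the replicate block and the GC trend removed (adjusted p = 0.0421).

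The replicate block called 2961 genes, 1777 of them higher and 1184 lower, and together with the GC correction 4770 genes, 2209 of them lower. Deviations of same-numbered vehicle and FIDAS-5 libraries from their group means correlated at 0.045, 0.169 and 5.24e-04, and not every library correlated best with its own number.

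TPM keeps no depth, so no interval for counting error is given. With 3 libraries a group, changes of 1 on the log2 scale were often missed in simulated data, so a gene not called is not shown to be unchanged.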
